A study of Mus musculus with 236 samples.

Results

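The mouse embryonic stem cells described here were taken at day 0.5 of differentiation and carry a pseudotime value, a position along a trajectory that the authors computed and deposited for each cell. They were chosen by that measured value and split at its median, 0.812, into 93 early cells at or below it and 93 late cells above it. They are 92.5% of the day 0.5 cells in the expression table, and the series holds 308 cells with a pseudotime value. All came from a female line made from blastocysts of a cross in which the mother was C57BL/6J (B6) and the father CAST/EiJ (Cast), so both X chromosomes of each cell can be told apart by their sequence variants. The line was kept on gelatin in serum medium with LIF, the Gsk3 inhibitor CT99021 and the MEK inhibitor PD0325901, and differentiation began when all 3 agents were withdrawn and cells were plated on fibronectin. HiRES, which reads chromatin contacts and RNA from the same cell, was applied to libraries of 1 or 2 cells each, 120 of them from day 0.5 and the others from day 2.5. No separate cultures are named, so the day 0.5 cells were taken as 1 sample of 1 cell line. No test between early and late cells was run. Intervals are 95% and cover counting error only.

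Embryonic stem cells held in LIF and both inhibitors resemble the naive epiblast. They leave that state when the agents are removed, lose factors such as Esrrb and Nanog, pass through a formative stage marked by Otx2 and Dnmt3b, and in female cells start random X inactivation. In that process the long noncoding RNA Xist coats and silences either X chromosome, while both X chromosomes are active before it. Its antisense partner Tsix restrains Xist in the naive state. Pseudotime orders single cells by the similarity of their profiles, and it is neither clock time nor a direct readout of differentiation.

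The pseudotime values stand in the deposited cell table that belongs to the allele counts of X-linked genes. In every one of the early and late cells the total count given there equalled the summed B6 and Cast counts of X-linked genes (within 1e-06), and the sources used here do not say what values the trajectory was built on. Levels of X-linked genes may therefore have helped to place the cells, and autosomal genes of the same cells are not independent of them either, so every difference between early and late cells is a description. Pseudotime ran from 0 to 12.8 and was unevenly filled. There were 33 early cells below 0.01, 19 early cells from 0.75 to 0.76 and 20 late cells from 1.82 to 1.83. The last early cell lay at 0.803 and the first late cell at 0.822, so cells on both sides of the median were nearly alike in this value. The highest cell was at 12.8, the next at 9.31 and the third highest at 5.44, whereas day 2.5 cells had a median of 12.03 (range 0.0664 to 15.1). Nearly all day 0.5 cells thus occupied the start of the trajectory.

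Depth was close in early and late cells. Early cells had a median of 13520 unique molecular identifiers (UMIs), the counted molecules, with a range of 3554 to 23179. Late cells had a median of 14140 UMIs, with a range of 5400 to 23213. Summed UMIs were 1227317 in early and 1318111 in late cells, and levels are given as CPM, the UMIs summed over a group of cells and scaled to a total of 1000000. Median contacts per cell were 186880 and 188212, and the median share of contacts between chromosomes was 7.90% and 7.69%. The cell table divides these cells into 2 sets in a column headed sample, without saying what the sets were. They are called batches here. Of these, batch 1 held 34 early and 42 late cells, and batch 2 held 59 early and 51 late cells. No cell name occurred in more than 1 library, but 75 libraries gave 2 of these cells and 34 of those held 1 early and 1 late cell. No doublet call was made. A single late cell had 47.7% of its UMIs on exons, against at most 29.5% in early cells.

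The deposited cluster labels shifted along pseudotime within day 0.5. Of the early cells 85 were in cluster C1, 4 in C2, 3 in C0 and 1 in C3. Of the late cells 68 were in C1, 24 in C2 and 1 in C3. The share of C2 was therefore 4.30% (exact binomial interval 1.18% to 10.6%) in early and 25.8% (17.3% to 35.9%) in late cells, a difference of 21.5 percentage points (Newcombe interval 11.5 to 31.6). Both batches showed it, with C2 holding 0 of 34 early and 11 of 42 late cells in batch 1, and 4 of 59 early and 13 of 51 late cells in batch 2. When the cells were cut by rank of pseudotime into 4 bins of 46 or 47 cells, bins 1 and 2 early and bins 3 and 4 late, C2 held 4, 0, 4 and 20 cells, so most of its cells lay in bin 4. The 4 early C2 cells were all in bin 1, with pseudotime between 0 and 0.0979. Clusters and pseudotime may come from the same values, and this relation is a description of the authors' labels. The sources used here do not say what C0 to C3 stand for.

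Cell cycle classes, also from the deposited table, did not differ in share beyond their intervals. G1 held 21 early and 20 late cells, Early-S 16 and 16, Mid-S 47 and 40, Late-S 8 and 12, and G2 1 and 5. The difference in Mid-S was -7.53 percentage points (-21.3 to 6.70) and that in G2 was 4.30 points (-1.36 to 10.96), so neither interval left out 0. At 93 cells a group, a shift of several points in a cell cycle class was not detectable.

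**Figure D1:**
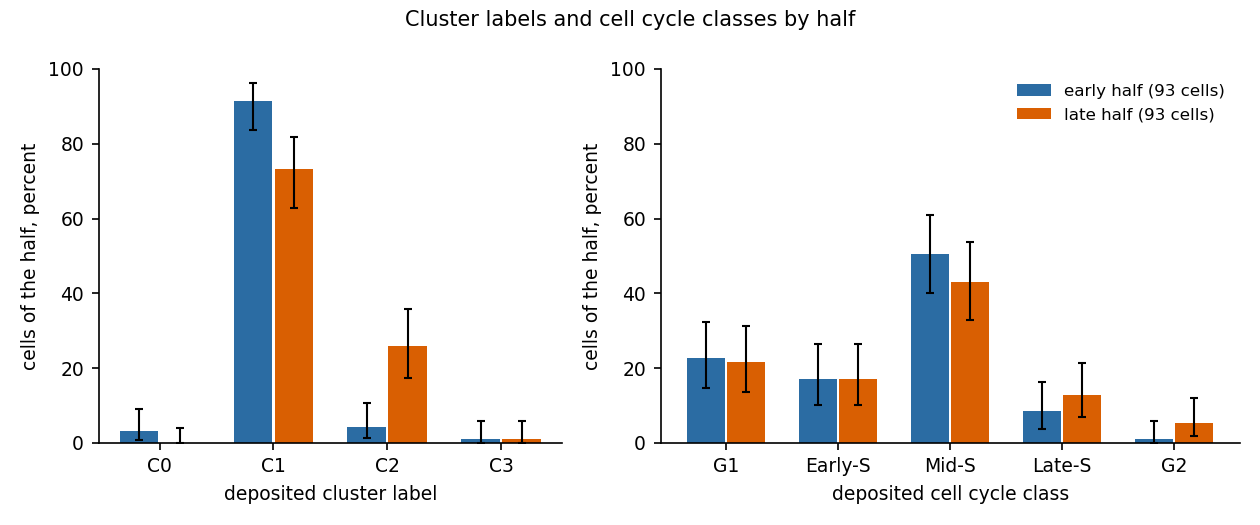
Percent of the 93 early cells (blue) and 93 late cells (orange) in each deposited cluster label (left) and cell cycle class (right), with exact binomial 95% intervals as lines. Cluster C2 held 4.30% of early and 25.8% of late cells, while the bars of each cell cycle class overlapped in their intervals.

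The gene with the largest difference was X-linked Klhl13, which encodes a substrate adaptor of the CUL3 ubiquitin ligase and has been linked to how female embryonic stem cells leave pluripotency. It spans positions 23219271 to 23365161 of chromosome X in GRCm38. Klhl13 was at 257 CPM (316 UMIs) in early and 1044 CPM (1376 UMIs) in late cells, a ratio of 4.05 (exact conditional interval 3.59 to 4.60). Single early cells had 0 to 31 UMIs with a median of 1, while single late cells started at 0 as well, had a median of 8, and the highest of them alone held 9.74% of the late UMIs. The ranges of early and late cells overlapped, and 19 of 93 late cells had no Klhl13 UMI. A UMI was found in 62.4% of early (51.7% to 72.2%) and 79.6% of late cells (69.9% to 87.2%). After each cell was thinned to 5000 UMIs, which left out 1 early cell, these shares were 38.04% and 67.7%.

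The high Klhl13 values were concentrated at the end of the trajectory. From bin 1 to bin 4 of pseudotime its level was 329, 183.96, 335 and 1739 CPM, so the bin just above the median was close to the lowest bin. Bin 4 held 68.4% of all Klhl13 UMIs of the early and late cells, and only 2 of its 47 cells had none. Among the late cells, the 10 cells with the most Klhl13 gave 46.6% of its UMIs. Across single cells Spearman's rho between Klhl13 CPM and pseudotime was 0.431 over the 93 early and 93 late cells, which share libraries and, possibly, the values behind the trajectory. The standard deviation of rho over all 4951 measured genes was 0.0748, and the next highest values were 0.291 for X-linked Gpc3, a cell surface heparan sulfate proteoglycan, 0.264 for Lima1 and 0.262 for Enah, both actin-binding genes. Values of that size in sparse counts are given as values only.

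Klhl13 was higher in late cells of each batch, of both main clusters and of each cell cycle class with at least 5 early and 5 late cells. It was at 326 and 882 CPM in early and late cells of batch 1, and at 207.1 and 1213 CPM in batch 2. In Mid-S cells it was at 160 CPM early and 912 CPM late, in G1 cells at 407 and 1430 CPM, in Early-S cells at 287 and 1362 CPM, and in Late-S cells at 257 and 802 CPM. G2 went the other way with 1742 and 567 CPM, from 1 early and 5 late cells. Cluster C1 had 224.7 CPM in early and 525 CPM in late cells, and C2 had 1253 CPM in 4 early and 2472 CPM in 24 late cells. The larger share of C2 among late cells and higher levels within C1 both entered the pooled difference, and within C1 alone the ratio was 2.34. In the 34 libraries that held 1 early and 1 late cell, the late cell had the higher Klhl13 CPM in 23 and the early cell in 8, and both were at 0 in 3. Summed over these libraries it was at 246 and 857 CPM (ratio 3.48, interval 2.80 to 4.34).

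**Figure D2:**
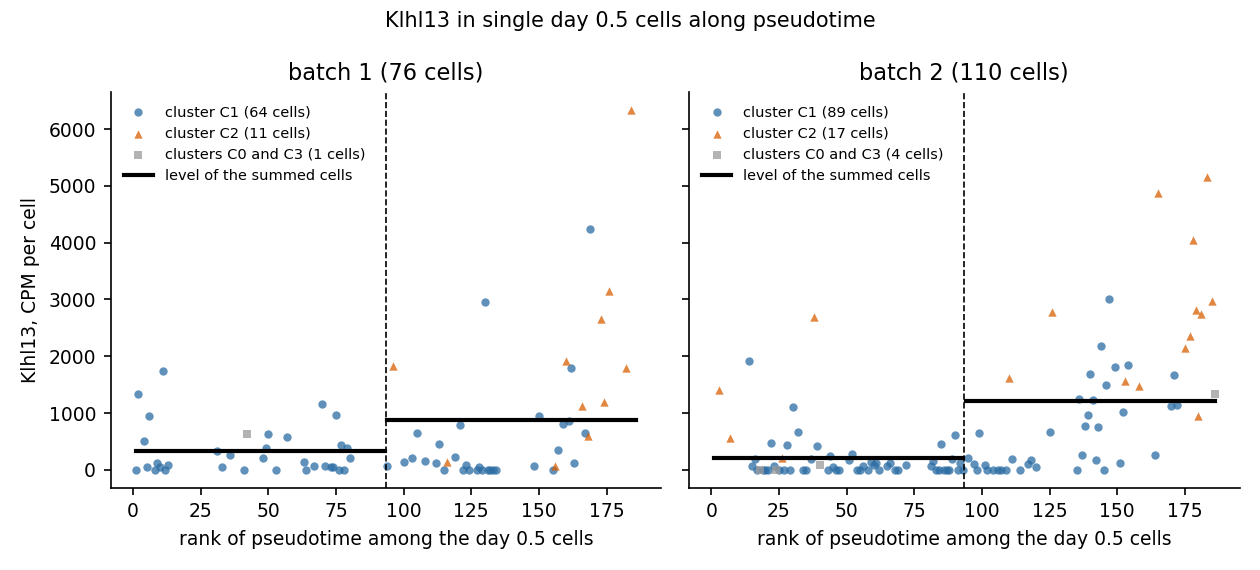
Klhl13 CPM in each cell (vertical axis) against the rank of its pseudotime among the 93 early and 93 late cells (horizontal axis), for batch 1 (left, 76 cells) and batch 2 (right, 110 cells). The dashed line marks the median, and black lines give the level of the summed early and late cells, 326 and 882 CPM in batch 1 and 207.1 and 1213 CPM in batch 2. Cells of cluster C2 (orange) gather at high ranks and high levels.

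Both X chromosomes contributed to the Klhl13 difference, the B6 chromosome by more. Early cells had 47 B6 UMIs (38.3 CPM) and 128.7 CPM from Cast, a B6 share of 22.9% (Wilson interval 17.7% to 29.1%). Late cells had 459 B6 and 450 Cast UMIs (348 and 341 CPM), a B6 share of 50.5% (47.2% to 53.7%). Scaled to total UMIs, the late to early ratio was 9.09 (6.73 to 12.6) for B6 and 2.65 (2.21 to 3.20) for Cast. The B6 share was 32.5% in early and 57.9% in late cells of batch 1, and 9.41% and 44.2% in batch 2, where early cells had only 8 B6 UMIs. UMIs of both alleles were seen in 8 early and 28 late cells, of B6 alone in 15 and 15, of Cast alone in 26 and 27, and of neither in 44 and 23. More late than early cells thus had both alleles detected, and fewer had none. Cells in bin 4 of pseudotime were at 53.02% B6, against 19.2%, 29.3% and 35.4% in bins 1 to 3. Among rows of the allele table with at least 100 UMIs, B6 Klhl13 had the highest rho with pseudotime (0.335), followed by B6 Gpc3 (0.313), Cast Klhl13 (0.257) and Cast Bcor (0.256).

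Klhl13 is also a gene of the later time point. In day 2.5 cells, split at their own median of pseudotime, it was at 1494 CPM (1366 UMIs) in the early and 452 CPM (431 UMIs) in the late ones. Its level in late day 0.5 cells thus lay between both groups of day 2.5, and the direction within day 2.5 was opposite to that within day 0.5. Genes for its protein partners were measured at lower depth. Cul3, the ligase scaffold, was at 213.5 CPM early and 217.4 CPM late (ratio 1.02, interval 0.857 to 1.21), and Rbx1, its ring-finger subunit, at 61.9 and 52.3 CPM (0.845, 0.601 to 1.19). Klhl9, which acts with Klhl13 in mitosis, had only 6 early and 4 late UMIs. X-linked Dusp9, a phosphatase of ERK, had 34.5 and 24 UMIs (ratio 0.648, interval 0.373 to 1.14). Klhl21 had 8 early and 9.5 late UMIs, and Aurkb had 31 and 29. All these genes were picked for their known link to Klhl13 or to X dosage, and the interval of each included 1.

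Over all X-linked genes early and late cells differed little. A gene was measured when it had at least 100 UMIs over both groups of cells, and was called higher or lower in late cells at a CPM ratio of at least 1.5 or its inverse, with the same direction in both batches. Of the measured genes on chromosome X, 11 were called higher (5.47%) and 4 lower (1.99%). Over all 4951 measured genes, 91 were higher (1.84%) and 78 lower (1.58%), and over the 4638 autosomal ones 80 were higher (1.72%) and 71 lower (1.53%). Nothing is read from the larger share on chromosome X, since its genes may have placed the cells. The share of UMIs on chromosome X was 5.56% in early and 5.73% in late cells, 0.170 percentage points higher (Newcombe interval 0.113 to 0.228). When the cells were split at the median of a first trajectory curve, also deposited, in place of pseudotime, this difference turned to -0.0188 points. Of the rise in X-linked CPM, 47.9% was Klhl13, and without this gene the difference was 0.0938 points (0.0365 to 0.151). In batch 1 it was 0.0165 points (-0.0685 to 0.102) and in batch 2 it was 0.302 points (0.223 to 0.381), so it rested on batch 2.

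Among the other X-linked genes called higher, Gpc3 had the most UMIs. It was at 511 CPM in early and 819 CPM in late cells (ratio 1.60, interval 1.45 to 1.77), with cell medians of 4 and 9 UMIs and ranges of 0 to 30 and 0 to 51. Its log2 difference was 0.71 in batch 1 and 0.64 in batch 2, and bin by bin of pseudotime it was at 521, 501, 659 and 975 CPM. The B6 share of Gpc3 was 45.2% early and 46.4% late. Bcor, a corepressor of the polycomb complex PRC1.1, was at 319 and 480 CPM, with a log2 difference of 0.22 in batch 1 and 0.91 in batch 2. Usp26, a deubiquitinase known from the testis, was at 70.1 and 148.7 CPM. Its UMIs came from few cells, 27 early and 31 late, and the 10 highest late cells gave 72.7% of the late total. The other genes called higher were Prps2, which makes phosphoribosyl pyrophosphate for nucleotide synthesis (27.7 to 51.6 CPM), the splicing regulator Mbnl3, Zfp280c, Pnma5, Platr21, Nhsl2 and the transcription factor gene Klf8, with ratios of 1.55 to 1.86. Those called lower were the chloride transporter gene Clcn5 (140 to 80.4 CPM), Map7d2, Nkap and Aff2, with ratios of 0.576 to 0.632.

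The B6 share over all allelic X-linked UMIs, leaving out Xist and Tsix, was 49.9% in early and 50.4% in late cells, a difference of 0.456 points (-0.276 to 1.19). Single early cells ranged from 35.5% to 61.3% with a median of 49.6%, and single late cells from 38.8% to 66.4% with a median of 50.6%. Both X chromosomes thus contributed in every cell. For genes with at least 50 allelic UMIs in early and in late cells, the median difference in B6 share was 0.430 points (-1.91 to 1.58). In 14 of them the share was higher by at least 10 points in the same direction in both batches (11.2%), and in 11 it was lower (8.8%), so shifts of this size went both ways in nearly equal numbers. Klhl13, at 27.6 points (20.6 to 33.7), had the largest of these shifts, closely followed by a fall of the same order in Nhs, an actin regulator gene, at -26.3 points (-36.6 to -16.2). Nhs had 27 B6 UMIs in 14 early cells and 4 in 3 late cells, so its B6 share went from 30.0% to 3.74%, by batches from 57.7% to 1.37% in batch 1 and from 18.8% to 8.82% in batch 2. The next largest fall was in Hprt, which encodes an enzyme of purine salvage, from 74.2% to 50.0% (-24.2 points, -39.2 to -7.57). Rps4x, a ribosomal protein gene (51.9% to 30.0%), and Rbbp7, a histone chaperone gene (64.3% to 45.1%), followed. After Klhl13, the largest rises were in Las1l, a ribosome biogenesis gene (55.2% to 73.3%), and Fgf13 (48.3% to 64.2%). Other than Klhl13 and Nhs, each of these genes had fewer than 160 allelic UMIs.

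**Figure D3:**
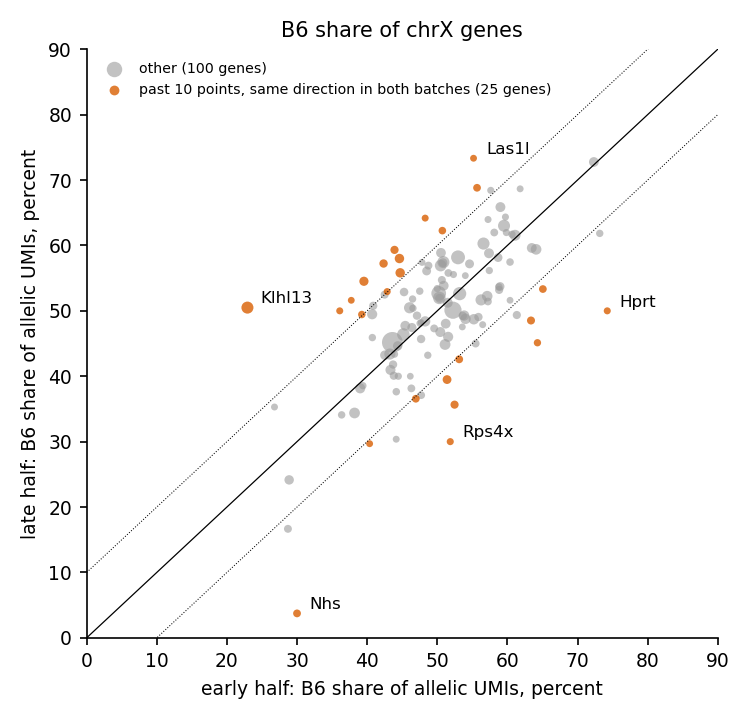
B6 share of the allelic UMIs of X-linked genes with at least 50 in both groups, in early (horizontal axis) and late cells (vertical axis), in percent, with the area of a point growing with the gene's UMIs. The 25 genes in orange passed 10 points (dotted lines) in the same direction in both batches, 14 above and 11 below the diagonal, with Klhl13 farthest above it at 22.9% and 50.5% and Nhs farthest below it at 30.0% and 3.74%.

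Xist and the genes around it were at similar levels in early and late cells. Xist had 50 UMIs in early and 50 in late cells, 40.7 and 37.9 CPM (ratio 0.931, interval 0.616 to 1.41), with 0 to 5 UMIs per cell in both groups. A UMI of Xist was found in 29 early and 31 late cells. Tsix was at 447 and 499 CPM (ratio 1.11, interval 0.995 to 1.25), with 0 to 16.8 UMIs per early and 0 to 22.3 UMIs per late cell. The UMIs of a gene and its antisense partner cannot be told apart here, because no source says whether counting used strand. Rlim, which encodes an Xist activator, was at 126.3 and 116.1 CPM, and the noncoding Ftx at 97.2 and 91.4 CPM. Chic1 was at 244 and 294 CPM (ratio 1.20, interval 1.03 to 1.40), with log2 differences of 0.59 in batch 1 and -0.03 in batch 2. None of the 5 measured members of the X-inactivation centre list was called, and their median log2 difference was -0.08, against -0.003 over all measured genes. The 21 measured X-linked housekeeping genes likewise gave no call and a median of -0.08, with Atrx, a chromatin remodeller, at 3237 and 2881 CPM.

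Batches 1 and 2 show whether a gene differed in the same way in separate sets of cells. Cells of both batches were placed on 1 shared pseudotime, which X-linked counts may have helped to build. Agreement between batches, above all for X-linked genes, may thus come from the split and is a description only. Of all measured genes, 51.8% had the same direction in both batches. Over 4638 autosomal genes Pearson's r between the log2 differences of the batches was 0.0309, and 0.0820 over the 1141 with at least 500 UMIs. For chromosome X it was 0.265 over all measured X-linked genes and 0.524 over the 67 with at least 500 UMIs, but 0.268 over the other 66 when Klhl13 was left out. These correlations are across genes, which are not independent replicates. When each batch was called on its own, 94 genes were higher in batch 1 and 64 in batch 2 among 2834 measured in both. The 6 in common, 6.38% of the batch 1 and 9.38% of the batch 2 calls, were Klhl13, Gpc3, Usp26, Mbnl3, Slc35f1 and Plce1, and the first 4 of them are X-linked. Lower calls were 69 and 52, with Clcn5, Garnl3, Mon2 and Riok3 in common, 5.80% of the batch 1 and 7.69% of the batch 2 calls. In opposite directions 9 genes were called. Genes called in both batches were thus few in either direction.

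**Figure D4:**
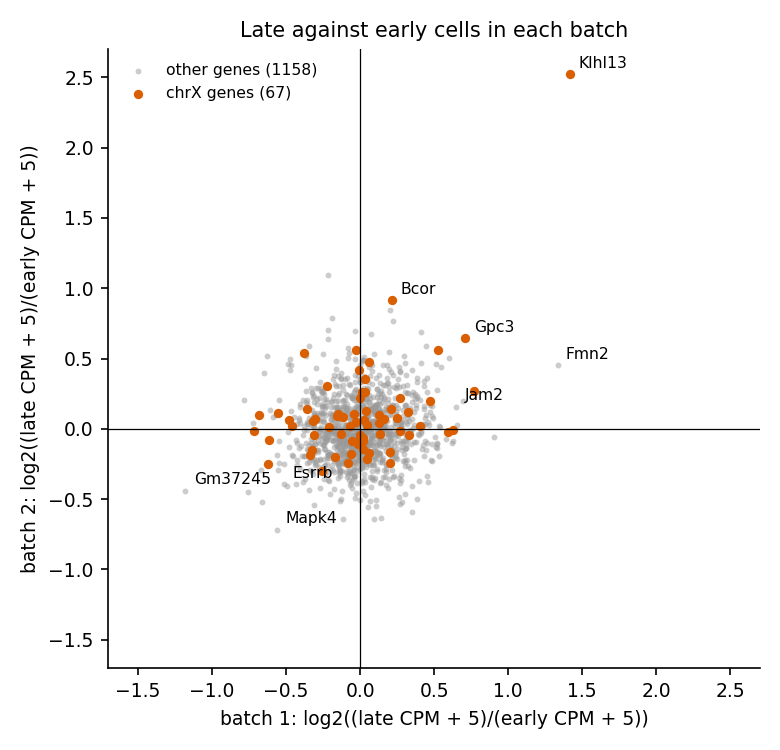
Log2 difference between late and early cells in batch 1 (horizontal axis) and batch 2 (vertical axis) for genes with at least 500 UMIs, 67 on chromosome X (orange) and 1158 others (grey). Klhl13 stands alone at 1.42 and 2.52, while the other genes form a round cloud about 0.

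The autosomal genes with the largest differences rested on few UMIs. The 12 highest genes with the same direction in both batches were Klhl13, Slc8a1, Dpp4, Zdhhc14, Phactr1, Slc35f1, Usp26, Blvrb, Prune2, Gm40864, Ddx18 and Prps2. Slc35f1, a member of a solute carrier family, had the most UMIs among the autosomal ones. It was at 111.6 CPM early and 242 CPM late (ratio 2.17, interval 1.77 to 2.67), with log2 differences of 0.89 and 1.27 in batches 1 and 2. From bin 1 to bin 4 it was at 68.1, 156.6, 211.1 and 273 CPM, and it was found in 35 early and 47 late cells. Day 2.5 cells had 363 CPM (early) and 362 CPM (late) of it. Slc8a1, which encodes a sodium-calcium exchanger, was at 21.2 and 56.9 CPM, and Dpp4, a surface peptidase gene, at 23.6 and 62.2 CPM. Phactr1, a regulator of actin and protein phosphatase 1, was at 31.8 and 75.1 CPM. Early and late day 2.5 cells had 132.4 and 139.5 CPM of Slc8a1 and 258 and 307 CPM of Phactr1, but only 8.75 and 12.6 CPM of Dpp4. Blvrb (biliverdin reductase B), Prune2, Gm40864 and the RNA helicase gene Ddx18 had ratios of 1.86 to 2.04.

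The 12 lowest genes were Erg, Epg5, Abcb1b, Cpeb4, Galnt1, Samd12, Gm14221, Brpf1, Kcnd2, 2500002B13Rik, Gm37245 and Pxk. Erg, an ETS transcription factor gene known from endothelium and blood, was at 97.8 CPM early and 35.7 CPM late (ratio 0.365, interval 0.255 to 0.515), with log2 differences of -1.49 and -1.19 in the batches. It was found in 41 early and 23 late cells, with at most 16 UMIs in an early and 5 in a late cell. From bin 1 to bin 4 Erg was at 110.6, 84.5, 29.1 and 42.1 CPM, and early and late day 2.5 cells had 4.38 and 7.34 CPM. Abcb1b, a multidrug transporter gene, was at 122.6, 132.6, 85.8 and 42.1 CPM in bins 1 to 4. Cpeb4, which encodes a regulator of translation through poly(A) tails, was at 72.5 and 35.7 CPM. Galnt1, a gene of mucin-type glycosylation, was at 114.1 and 58.4 CPM, and the autophagy gene Epg5 at 62.7 and 29.6 CPM. Gm37245 had the most UMIs of the 12, with 291 CPM early and 164.6 CPM late, while day 2.5 cells had 1314 and 1506 CPM.

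Few called genes had at least 400 UMIs. The 7 higher ones were Klhl13, Slc35f1, Fmn2, Gpc3, Klf8, Adamts9 and Bcor. Of these 4 are X-linked, as were 76 of the 1595 genes measured at that minimum. Nothing is read from this, since X-linked genes may have placed the cells. Fmn2, an actin nucleator gene, was at 200 and 336 CPM (ratio 1.68, interval 1.43 to 1.97), with log2 differences of 1.33 in batch 1 and 0.46 in batch 2. The 3 lower ones were Gm37245, Mapk4 and Arhgap12. Mapk4, an atypical MAP kinase gene, was at 314 and 195.7 CPM. Fmn2, Adamts9, Mapk4 and Arhgap12 were named after their values were seen.

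Among pluripotency genes, Esrrb was lower and Nanog and Jam2 were higher in late cells, each by less than the calling threshold. In the naive list, 11 of 19 genes were measured and 0 were called higher or lower, at a background of 1.84% higher and 1.58% lower at which a list of this size would rarely hold a call. The median log2 difference was -0.05 (range of the order-statistic interval -0.37 to 0.41), with 4 genes above and 7 below 0. Esrrb, which encodes an orphan nuclear receptor that sustains the naive state, was at 390 CPM early and 285 CPM late (ratio 0.73, interval 0.637 to 0.838). Its cell median was 4 UMIs (0 to 25) in early and 3 (0 to 12) in late cells, and both batches were below 0 with -0.51 and -0.39. After thinning to 5000 UMIs, Esrrb was found in 81.5% of early and 65.6% of late cells. Nanog, a homeobox factor of the same network, went the other way with 70.9 and 102.4 CPM (ratio 1.44, interval 1.10 to 1.91), by 0.51 and 0.56 in the batches. Jam2, an adhesion molecule gene, was at 367 and 487 CPM. Morc1 was at 694 and 690 CPM, Zfp42 (Rex1) at 331 and 332 CPM, Tet2 at 425 and 445 CPM, and Nr5a2 at 206.1 and 185.1 CPM. Klf5, Tfcp2l1, Tbx3 and Fgf4 had log2 differences of -0.37 to -0.05. Esrrb, Jam2 and Morc1 differed more between days, since early and late day 2.5 cells had 12.03 and 16.8 CPM of Esrrb, 9.84 and 3.15 CPM of Jam2, and 45.9 and 31.5 CPM of Morc1.

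In the list of formative and primed genes, 12 of 20 were measured and 0 were called, at the same background of 1.84% and 1.58%, and 6 lay above and 6 below 0, with a median of 0.06 (-0.07 to 0.31). Otx2, a homeobox factor of the formative state, was at 72.5 and 91.04 CPM (ratio 1.26, interval 0.946 to 1.67). The de novo DNA methyltransferase gene Dnmt3b was at 568 and 528 CPM, and Dnmt3a at 258 and 256 CPM. Lin28b, a repressor of let-7 maturation, was at 183.3 and 229.1 CPM (ratio 1.25, interval 1.05 to 1.49). Tead2, Zic5 and Cdh2 had log2 differences of 0.18 to 0.39 with intervals of the ratio that included 1. Rbpj, the DNA-binding partner of Notch, was at 3379 and 3331 CPM, and Tcf7l1, Grhl2, Dnmt3l and Pim2 lay between -0.17 and 0.13. General pluripotency genes had a median of 0.08 over 12 measured, with Rif1 at 1572 and 1408 CPM and Trim71 at 798 and 814 CPM.

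Signalling lists held too few measured genes for their 0 calls to be read against that background. Of 8 measured FGF-ERK genes, 4 lay above and 4 below 0, with a median of -0.01. The ETS factors Etv4 and Etv5, transcribed on ERK activity, were the lowest with 195.96 and 138.8 CPM (ratio 0.709, interval 0.583 to 0.864) and 387 and 294 CPM (0.759, 0.662 to 0.869). Both were below 0 in both batches, by -0.30 and -0.74 for Etv4 and -0.55 and -0.24 for Etv5. Spry4, a feedback inhibitor of the same pathway, was at 43.6 and 57.7 CPM, and Fgfr1 at 104.7 and 131.2 CPM, so single genes of the pathway lay on either side of 0. Wnt targets (3 measured, Lef1, Znrf3 and Ccnd1) had a median of -0.09, LIF-STAT3 genes (6 measured) 0.10, and Nodal and BMP genes (4 measured) 0.04. In the LIF list the receptor gene Lifr was at 118.96 and 87.2 CPM, with log2 differences of -0.87 in batch 1 and -0.07 in batch 2.

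**Figure D5:**
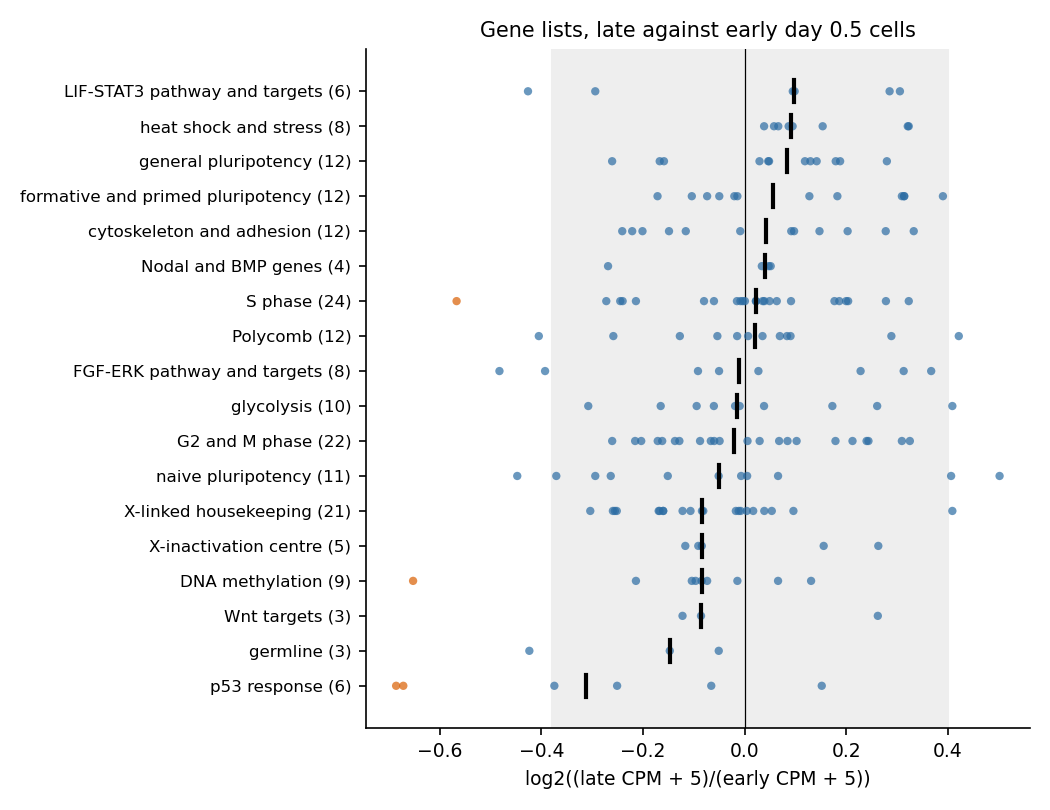
Log2 difference between late and early cells for each measured member (points) of the 18 gene lists with at least 3, with the number of members in parentheses and the median as a black bar. Orange points are the 4 called genes, and the grey band spans the 5th to the 95th percentile of all measured genes, -0.38 to 0.40. The p53 list has the lowest median, -0.31 over 6 genes, which is -0.11 over the same 6 genes without 1 early cell.

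Cell cycle genes were at similar levels in early and late cells. The median was 0.02 (-0.06 to 0.09) over 24 S phase genes and -0.02 (-0.14 to 0.18) over 22 genes of G2 and M phase. Hells, Tipin, Dtl and Brca1 had ratios of 1.00 to 1.13. Top2a, the topoisomerase of mitotic chromosomes, was at 450 and 533 CPM (ratio 1.19, interval 1.06 to 1.33), and Ect2, a cytokinesis gene, at 417 and 392 CPM. E2f1, a transcription factor of S phase entry, was the 1 called gene of both lists, with 48.5 and 31.1 CPM.

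Over the measured genes of all 25 lists, 0 were called higher and 4 lower (2.12%), near the background of 1.58% of all genes. Besides E2f1 these were Tdg, a DNA glycosylase of active demethylation (68.4 and 41.7 CPM), and the p53 targets Mdm2 (127.5 and 77.4 CPM) and Sesn2 (78.5 and 47.4 CPM). Both p53 calls were lost without 1 early cell, which held 26.8% of the early Mdm2 but 10.4% of the early Sesn2 UMIs. Sesn2 then only just missed the calling ratio, and its interval stayed below 1. That cell, the only early one in cluster C3, had 42 of the early Mdm2 UMIs and summed to 11904 CPM over the p53 list, against 3492 CPM in the next early cell and a median of 669 CPM. Without it Mdm2 was at 94.02 and 77.4 CPM (ratio 0.823, interval 0.627 to 1.09) and Sesn2 at 70.9 and 47.4 CPM (0.669, 0.473 to 0.934), and neither was called. Of all list genes 1, Tdg, was still called lower without that cell (0.535% of those measured), and E2f1 fell under the minimum of 100 UMIs. The summed level of the list was 778 and 652 CPM (ratio 0.838, interval 0.764 to 0.920) with that cell and 691 and 652 CPM (0.943, 0.857 to 1.04) without it. Of the same 6 genes 5 lay below 0 with it and 4 without it, and their median moved from -0.31 to -0.11. These 6 include Trp53inp1, which without that cell fell under the minimum of 100 UMIs. Trp53 itself was at 165.4 and 157.8 CPM, and Sesn1 was above 0 with 130 and 144.9 CPM. Polycomb genes had a median of 0.02 over 12, DNA methylation genes -0.08 over 9, glycolysis genes -0.01 over 10, and cytoskeleton and adhesion genes 0.04 over 12. All 8 measured heat shock and stress genes lay above 0, by 0.04 to 0.32, with a median of 0.09. The list summed to 1197 and 1271 CPM (ratio 1.06, interval 0.989 to 1.14), and the interval included 1. Mitochondrial transcripts summed to 673 CPM in early and 812 CPM in late cells (ratio 1.21, interval 1.10 to 1.32). The late cell with 47.7% of its UMIs on exons, which is the highest in pseudotime and the only late one in cluster C3, had 75 of these UMIs, and without it late cells were at 766 CPM (ratio 1.14, interval 1.04 to 1.25). The part of these transcripts in the other differences was not tested.

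Among markers of other cell types, those of primitive streak and two-cell-like cells were scarce in early and late cells, while the other lists summed to more. Of 14 primitive streak genes 9 were at 0 in every cell, Mixl1, Foxa2 and Mesp1 among them, and the list summed to 7.74 and 16.3 CPM. Of 12 two-cell-like genes, 10 were in the table and 7 at 0, including Zscan4c, Zscan4d and Zscan4f, and the sums were 3.26 and 9.10 CPM from 4 and 12 UMIs. Trophectoderm markers had 6 of 13 at 0, Cdx2 and Krt8 included, and summed to 136.9 and 128.6 CPM, most of it Tead4. Primitive endoderm markers summed to 461 and 503 CPM, most of it the matrix gene Lamc1, with Sox17 and Sox7 at 0. Feeder fibroblast genes summed to 450 and 485 CPM, nearly all Fn1, with Col1a2 and Col3a1 at 0. Neuroectoderm genes were at 352 and 429 CPM, mainly Ncam1, with 400 and 343 CPM in batch 1 and 317 and 518 CPM in batch 2. Germline genes summed to 489 and 441 CPM, with Sycp1, Xlr3a and Hormad1 as the 3 measured ones. Of the naive markers, 11 of 19 were measured, and detection differed among them. Esrrb was found in 88 early and 84 late cells, but Nanog in 51 early and 62 late cells.

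Klhl13 kept a ratio of 1.82 to 6.11 under every other split, scaling, filter and choice of cells tried. All of these used the same pseudotime or the curve deposited beside it, which Klhl13 counts may have helped to build. They describe how the value varied and are no independent support for it. It ranked first of all measured genes by log2 difference in 16 of the 20 alternatives. Its rank was 3 in batch 1 alone, in cluster C1 alone and in libraries with 1 early and 1 late cell, and 23 when bin 3 of pseudotime was set against bin 2, where it was at 335 and 183.96 CPM. Other called genes depended on how the cells were split. When the 62 lowest cells were set against the 62 highest, 91 genes were called higher, of which 23 were among the 91 called between all early and late cells. With the split by the first curve, 2.52% of measured genes were higher, 21 of the 91 among them. Under that split Erg (0.43), Kcnd2 (0.52), Pxk (0.011), Mdm2 (0.054) and Usp26 (-0.029) changed sign on the log2 scale. With bin 4 against the other 3, Dpp4 (-0.061) and Usp26 (-0.13) did so.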

How the data were processed

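Cells were those with a deposited pseudotime value, an authors' score, split at its median, and the members and gene lists were chosen with earlier results of these data known. The authors deposited expected counts of UMIs per gene and cell, and of the values above 0, 11.2% were fractions. They also gave an allele table of expected counts for X-linked genes. Per cell they gave counts, fractions of contacts between chromosomes and a ratio of RNA to raw reads, per the file headers. Reads were placed on GRCm38, per the submitters' processing notes, and positions came from RefSeq's table of GRCm38.p6. The sources used here do not give the aligner, the counting tool, the strand setting or the tools behind clusters and cell cycle classes. The column header names monocle3 for pseudotime, but its input and settings are not given. Columns of no sample here (1101 in the expression and 893 in the allele table) were not used. UMIs were summed over early and over late cells and scaled to CPM, and the difference is log2((late CPM + 5)/(early CPM + 5)). The computation was checked on simulated counts whose cells varied only by depth, counting error and the changes put in. Real cells vary more, so that check does not bear on how reliable the calls are. Named were the 12 highest and 12 lowest genes with at least 100 UMIs and the same direction in both batches, up to 4 members per list with the most UMIs (all for the naive and formative lists), and Xist and Tsix. Intervals of medians are order-statistic ones, or the range for fewer than 6 genes. Alternatives changed scaling, pseudocount, minimum counts, split, cells and depth. Python 3.11 with pandas, numpy and scipy was used.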

Additional observations from a re-analysis of the deposited data

How the results depend on the processing

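With the cells of a day taken as 1 sample, counting error is the only error given. Calls of genes with few UMIs are the least certain. The labels give early and late cells no shared replicate numbers, so the only pairing was by library, and no paired test was run. Within the 34 libraries with 1 early and 1 late cell, the difference in chromosome X share was 0.0824 points and that in B6 share -0.419 points. Calls were 7.17% higher and 6.00% lower (747 and 625 genes) with a minimum of 20 UMIs, 0.439% and 0.188% (7 and 3 genes) with 400, and 1.80% and 1.33% (42 and 31 genes) after thinning to 5000 UMIs, which leaves 2336 genes measured. Bin 4 against the other 3 gave 3.11% lower. The S phase median was 0.091 with a minimum of 400 UMIs, -0.065 between the 62 lowest and the 62 highest cells and 0.11 between bins 3 and 2, where the G2 and M phase median was -0.14. The difference in chromosome X share was 0.249 points with each batch at its own median, 0.302 in batch 2, 0.0165 in batch 1, 0.111 in cluster C1, 0.0596 between bins 3 and 2 and 0.0938 without Klhl13. It turned to -0.0188 points when cells were split by the first curve, and the cause was not tested. The B6 share differed by 1.41 points for bin 4 against the others and by -0.586 between bins 3 and 2, and the C2 share by 36.8 and 8.70 points. Of these and the like values over all alternatives, 85.3% stayed within 1.5 times the count or within the interval of the value reported. Among 341 values for the 25 called named genes, 7 turned: under the first curve Usp26 (-0.029), Erg (0.43), Kcnd2 (0.52), Pxk (0.011) and Mdm2 (0.054), and for bin 4 Dpp4 (-0.061) and Usp26 (-0.13). Splits by bins, by the first curve, by shared libraries, without the 2 cells above 6, without the early cell highest in p53 genes, without the late cell highest in mitochondrial transcripts and without Klhl13 were chosen after seeing the data.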
